A study of Mus musculus with 6 samples.

Results

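The regions bound by CTCF in the antigen receptor loci of mouse embryonic stem cells were examined. They were chosen by position, as every region of the joined list of CTCF peaks that overlapped a window around 1 of 4 loci in build mm9. The window of the immunoglobulin heavy chain locus (Igh) spans 2.90 Mb around the segments at chr12:114509484-117238672, and that of the kappa light chain locus (Igk) 3.40 Mb around chr6:67505630-70676751. The window of the T cell receptor alpha and delta locus (Tcra/Tcrd) spans 2.05 Mb around chr14:53047603-54842772, and that of the T cell receptor beta locus (Tcrb) 0.850 Mb around chr6:40841295-41508370. There were 136 such regions among 57662 in all, with 35 in Igh, 46 in Igk, 37 in Tcra/Tcrd and 18 in Tcrb. The cells came from an embryonic stem cell line whose own CTCF carried EGFP and an AID degron and was removed with auxin in both groups. WT_CTCF cells received an introduced wild-type CTCF, and MUT_CTCF cells received a CTCF in which the threonine at position 668 was replaced by alanine, so that this residue could not carry the sugar O-GlcNAc. The cells were picked clones, so genotype and clone cannot be told apart. There were 2 CTCF chromatin immunoprecipitation libraries and 1 input library per genotype, and peak lists came from the 4 CTCF libraries. The study's methods call the replicates biological, without saying whether they were separate cultures, so a p-value measures the spread between these libraries.

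CTCF reads an asymmetric DNA motif with its zinc fingers and halts the cohesin complex as it extrudes loops of chromatin. Loops are most often anchored by a pair of motifs that point towards each other. In developing lymphocytes the V, D and J segments of these loci are cut and joined, and CTCF sites there help to bring distant V segments close to the D and J segments and to separate the loci from their neighbours. Each segment carries a recombination signal beside it, made of a heptamer and a nonamer with a spacer between them. Embryonic stem cells do not rearrange these loci, so these regions describe binding outside the cells that use the loci.

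The following sequences show the best match to the core CTCF motif in the regions on which the results turn. They were read from the reference genome of the same build, 5′ to 3′ on the strand of the match, with the 13 letters of the match in capitals. A match had at most 1 mismatch to the core CTCF consensus and was searched on both strands. Of all 57662 regions 60.6% held one, against 62.5% of the 136.

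Igh beyond C, strongest region, chr12:114459595-114459655, plus strand: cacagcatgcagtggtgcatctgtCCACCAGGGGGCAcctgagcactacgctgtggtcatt
Igh beyond C, neighbouring region, chr12:114458240-114458300, plus strand: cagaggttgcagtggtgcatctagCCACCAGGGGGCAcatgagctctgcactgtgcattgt
Igh beyond C, outermost of the 3, chr12:114455649-114455709, plus strand: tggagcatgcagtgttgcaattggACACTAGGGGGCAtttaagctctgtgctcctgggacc
Igh among the D segments, chr12:114723456-114723516, minus strand: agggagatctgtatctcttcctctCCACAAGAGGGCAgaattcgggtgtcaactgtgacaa
Igh distal V part, highest score ratio, chr12:116862593-116862653, minus strand: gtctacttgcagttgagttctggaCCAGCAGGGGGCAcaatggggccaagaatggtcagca
Igk beyond C, strongest region, chr6:70756092-70756152, minus strand: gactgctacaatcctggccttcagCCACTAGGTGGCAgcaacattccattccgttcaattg
Igk beyond C, highest score ratio, chr6:70748000-70748060, minus strand: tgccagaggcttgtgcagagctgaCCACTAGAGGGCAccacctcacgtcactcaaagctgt
Igk V to J interval, chr6:70659846-70659906, minus strand: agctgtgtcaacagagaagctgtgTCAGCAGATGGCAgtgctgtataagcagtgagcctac
Tcra/Tcrd beyond C, strongest region, chr14:54847953-54848013, plus strand: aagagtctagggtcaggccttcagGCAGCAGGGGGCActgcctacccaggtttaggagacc
Tcra/Tcrd at Trav3-4, no MUT_CTCF call, chr14:54396526-54396586, plus strand: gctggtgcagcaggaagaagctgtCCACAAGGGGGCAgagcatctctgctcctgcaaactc
Tcrb at Trbv14, strongest region, chr6:41087148-41087208, plus strand: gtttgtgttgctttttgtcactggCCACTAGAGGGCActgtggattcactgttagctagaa
Tcrb in front of Trbd1, chr6:41480153-41480213, minus strand: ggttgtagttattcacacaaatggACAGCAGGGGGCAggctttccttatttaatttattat

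In Igh the matches of the 3 regions beyond the C segments lay on the plus strand, and those among the D segments and in the V part lay on the minus strand. The matches in the Trbv14 and Trbd1 regions of Tcrb likewise lay on opposite strands.

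The score below is the value the peak caller gave each peak in a library. It is not a read count and has no unit, and counts per library were not analysed here. Where a library had several peaks in a region, the highest score was taken. A region was called in a library when a peak of that library overlapped it by at least 1 bp. The mean count is the authors' mean over the 4 libraries of spike-in scaled reads in the region. Read depth is unknown here, so a missing call means only that no peak was listed. The peak lists held 49987 and 54001 peaks for WT_CTCF and 33939 and 32712 for MUT_CTCF, so calls were fewer in MUT_CTCF across the genome. With 2 libraries against 2, the exact two-sided permutation test cannot give a p below 0.333.

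Fewer regions were called in MUT_CTCF in every one of the 4 loci, and the scores of the shared regions were lower there. This direction rests on the cutoff of the peak caller, which is not given in the sources used here. The study's methods state that scale factors from the spike-in reads entered the signal from which peaks were called. The direction was not tested here against the spike-in scaled counts of each library. It is thus a direction of peak calls and scores and may not be that of the amount of CTCF bound. The study itself reports the opposite direction for binding. Its spike-in normalised ChIP-seq gave a significant genome-wide increase in binding of the mutant CTCF, and its immunoblots showed more chromatin-bound CTCF in MUT_CTCF cells. Of the 136 regions, the WT_CTCF libraries called 120 and 127 and those of MUT_CTCF 85 and 78, which is 124 ± 4.95 against 81.5 ± 4.95 (SD, n = 2 each), and the groups did not overlap (exact two-sided permutation p = 0.333). The ratio of these means was 0.660, beside 0.637 over all regions. A peak was present in all 4 libraries in 75 regions, which is 55.1% against 52.6% of all regions. In both WT_CTCF libraries and no MUT_CTCF library a peak was present in 27 regions, 19.9% against 19.5%. In a MUT_CTCF library but no WT_CTCF library a peak was present in 1 region, 0.735% against 0.316%. In each of the 75 shared regions both MUT_CTCF scores lay below both WT_CTCF scores, which held for 96.2% of shared regions genome-wide. These shares were all near the background of the genome.

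The loci differed from one another in how many calls they kept. In Igh WT_CTCF replicates 1 and 2 called 31 and 33 of the 35 regions, and those of MUT_CTCF 27 and 23. In Igk 43 of the 46 were called in each WT_CTCF library and 28 in each MUT_CTCF library. In Tcra/Tcrd 29 and 34 of the 37 were called in WT_CTCF and 18 and 17 in MUT_CTCF. In Tcrb 17 of the 18 were called in each WT_CTCF library, and 12 and 10 in the MUT_CTCF libraries. The ratio of mean calls, MUT_CTCF over WT_CTCF, was thus highest in Igh at 0.781 and lowest in Tcra/Tcrd at 0.556, with 0.651 in Igk and 0.647 in Tcrb. The difference between the loci was not tested. In each locus the groups did not overlap (exact two-sided permutation p = 0.333).

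**Figure D1:**
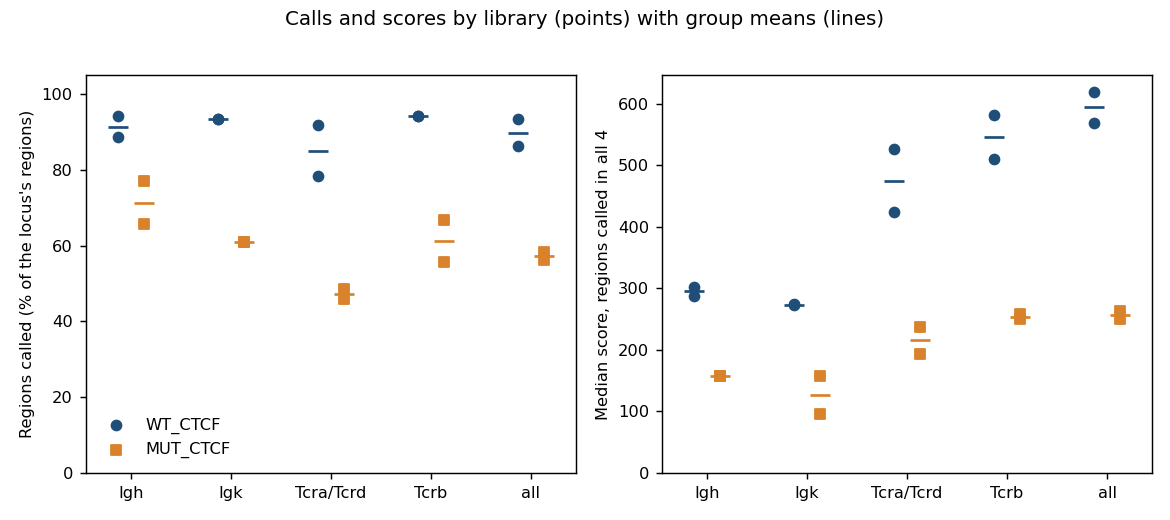
Left, share of the regions of each locus called in each library (percent); right, median score of the regions called in all 4 libraries (no unit); points are libraries, short lines are group means and "all" is every region. WT_CTCF points lie above MUT_CTCF points in every locus, and the WT_CTCF scores of Igh and Igk lie below those of all regions.

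Shared regions of Igh and Igk had low scores in WT_CTCF. Their median scores were 302 and 288 in Igh and 274 and 273 in Igk, against 569 and 620 over all shared regions. In MUT_CTCF the medians were 158 and 158 in Igh and 158 and 96 in Igk, against 263 and 250. Median scores in Tcra/Tcrd were 424 and 526 in WT_CTCF and 194 and 238 in MUT_CTCF. In Tcrb they were 582 and 510 in WT_CTCF and 258 and 250 in MUT_CTCF. The difference of the median log2 score, MUT_CTCF minus WT_CTCF, was -0.90 in Igh, -1.14 in Igk, -1.14 in Tcra/Tcrd and -1.11 in Tcrb. In each locus the groups were separated, with the smallest p the design allows (exact two-sided permutation p = 0.333). Without MUT_CTCF replicate 2 the value in Igk was -0.68. Relative to the library's own median over all shared regions, the sign turned in all 4 loci, and it was 0.31 in Igh. Taken region by region, the median log2 ratio over all 30317 shared regions was -1.18, with quartiles of -1.52 and -0.88. The log2 ratios of single regions given below stand beside these values.

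Whether a region kept its call went with its WT_CTCF score. Of the 14 regions called in both WT_CTCF libraries with a mean score under 100, 12 had no MUT_CTCF call, or 85.7% against 84.9% of all regions in that range. From 100 to below 200 it was 13 of 32, or 40.6% against 45.5%. From 200 to below 400 it was 2 of 30, or 6.67% against 8.76%. Of the 36 regions at 400 or more, none lacked a MUT_CTCF call and all 36 were called in both MUT_CTCF libraries, against 98.6% of all regions in that range. The same shares in the single loci rest on few regions, such as 8 of 19 between 100 and 200 in Igk and 1 of 6 in Igh.

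**Figure D2:**
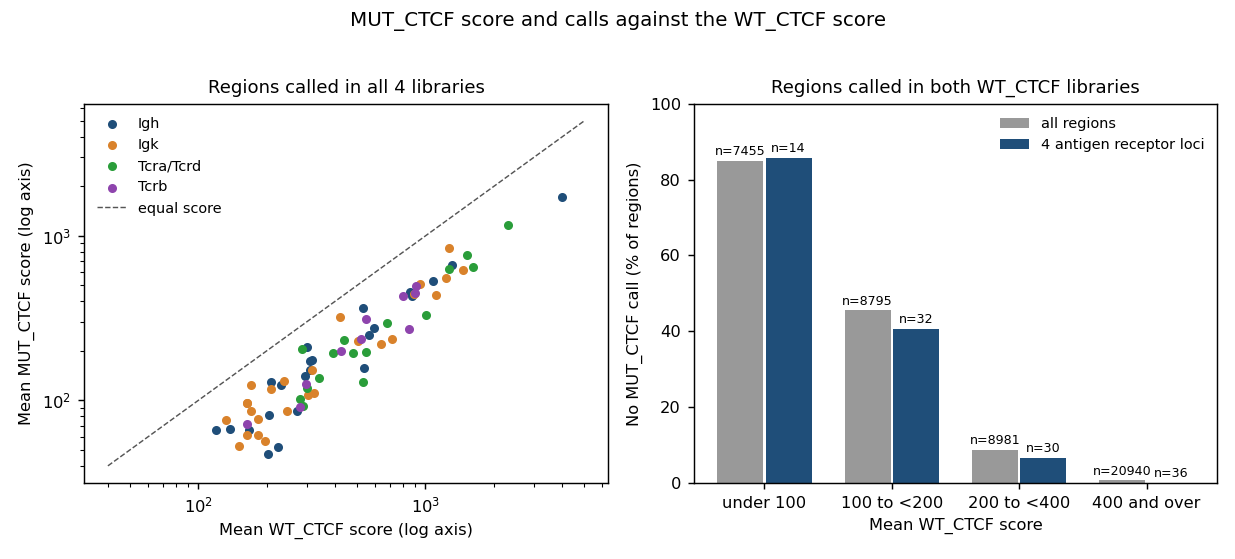
Left, mean MUT_CTCF score against mean WT_CTCF score of the 75 regions called in all 4 libraries (log axes, no unit; dashed line, equal scores); right, share of regions called in both WT_CTCF libraries that had no MUT_CTCF call, by mean WT_CTCF score, with the number of regions above each bar. All 75 points lie below the dashed line, and the receptor loci follow the bars of all regions from 85.7% to 0%.

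The Igh locus lies on the minus strand, with its C segments at the low end of the window and its V segments above. Its regions were sparse, at 12.1 per megabase against 37.2 in the same width to either side and 21.7 over the genome. Only 61.0% of the 31-mers sampled in the window occurred once in the genome, against 91.4% in the flanks. The authors removed reads that aligned to several places, and the part of this in the sparse regions was not tested. Called in all 4 libraries were 23 of 35 regions, or 65.7% against 52.6% of all regions. Called in both WT_CTCF libraries and no MUT_CTCF library were 3 of 35, or 8.57%, against 19.5% of all regions and 17.6% in the flanks. That count was 6 without WT_CTCF replicate 1, 5 without WT_CTCF replicate 2 and 6 without MUT_CTCF replicate 1.

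The strongest binding of Igh lay beyond the C segments, on the side away from the V segments. In B cells this 3′ end is known as a cluster of CTCF sites that bounds the locus. The section of 109 kb held 7 regions with a median mean count of 300.5, against 79.25 for the 23 regions of the V part. The region chr12:114459526-114461437 had the highest mean count of the 136, 1750.25, at the 99.8th percentile of all regions. Its scores were 3906 and 4074 in WT_CTCF and 1843 and 1589 in MUT_CTCF. Both WT_CTCF scores were well above both MUT_CTCF scores, with a log2 ratio of -1.22 (MUT_CTCF over WT_CTCF). The neighbouring region chr12:114457944-114459174 scored 1122 and 1048 in WT_CTCF and 444 and 625 in MUT_CTCF. The region chr12:114455417-114456601 scored 1333 and 1295 in WT_CTCF and 786 and 548 in MUT_CTCF. All 3 lay between genes, from 48047 to 52883 bp beyond the last C segment in the annotation used, which held 5 C segments for Igh. In this cluster the region chr12:114462541-114462727 was called only in WT_CTCF replicate 2, with a score of 68. The region chr12:114443833-114444035 scored 57 and 114 in WT_CTCF and had no MUT_CTCF call. Of the 5 regions of this section with a motif match, 4 had it on the plus strand.

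Among the annotated D segments lay 2 neighbouring regions, and the interval from the last D to the first V segment held none. The 2 regions lay on the V side of the D segment Gm16947, 2850 and 5455 bp from it. They counted as among the D segments because further annotated D segments, such as Gm16967, stood farther towards the V segments. The interval of V and D segments is known to hold CTCF sites that limit the use of the nearest V segments. The region chr12:114725858-114726420, near the gene Adam6b, scored 882 and 829 in WT_CTCF and 473 and 444 in MUT_CTCF. Its log2 ratio was -0.90, and it held no match at 1 mismatch or fewer. Its neighbour chr12:114723253-114723669 was much weaker, with scores of 101 and 177 in WT_CTCF, 42 in MUT_CTCF replicate 1 and no call in replicate 2.

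In the V part the 23 regions fell into those on V segments and those between them. A total of 8 regions touched a V segment, and all 8 were called in all 4 libraries, where 52.6% of all regions were. All 8 had MUT_CTCF scores below those of WT_CTCF, which held for 96.2% of shared regions genome-wide. Their scores ran from 138 to 758 and from 102 to 992 in WT_CTCF and from 48 to 458 and from 47 to 400 in MUT_CTCF. The median log2 ratio was -1.05. Of the other 15 regions in the V part 8 were called in all 4 libraries, and their median log2 ratio was -1.21. The split depends in part on width, as the 8 regions that touched a V segment were 305 to 605 bp wide. Among the other 15, chr12:114826239-114826420 and chr12:115560388-115560576 were 182 and 189 bp wide. These lay 58 and 9 bp from a V segment and had no MUT_CTCF call. The region chr12:114849090-114849663 touched the V segment Gm16948 and had the highest scores of the V part, 758 and 992 in WT_CTCF and 458 and 400 in MUT_CTCF; it was singled out after its values were seen. Among all shared regions of Igh the ratio was lowest at chr12:115372960-115373357, with scores of 203 and 245 in WT_CTCF and 57 and 47 in MUT_CTCF. It was highest at chr12:116862265-116862869, with 317 and 288 in WT_CTCF and 250 and 175 in MUT_CTCF, a log2 ratio of -0.53. The region chr12:115570804-115571048, 9792 bp from Ighv3-8, scored 125 and 138 in WT_CTCF and had no MUT_CTCF call.

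Some of the matches in Igh stood at a fixed place and on a fixed strand beside V segments. Over the whole window 32 matches with at most 1 mismatch lay 0 to 100 bp past a V segment, of which 10 lay in a region. The other 178 lay elsewhere, of which 17 lay in a region. Within 120 bases past the 3′ end of a V segment, 32 of 112 annotated V segments held a match, or 28.6%, against 0.564% of all 120-base windows of the genome. All 32 lay on the strand of the V segment, and the distance from the segment to the match was between 52 and 75 bases. The heptamer CACAGTG, the consensus start of the recombination signal, stood within the first 20 bases past 78 of the 112 segments and past 21 of these 32. That search allowed no other letters, so variant heptamers were not counted. V segments of Igh are partly copies of each other, so the matches are not independent. These 32 segments lay in the D-proximal stretch of chr12:114816715-115762098, which is bounded by the outermost of them and held 49 of the 112 segments. The following stretches begin at the first base past the V segment; capitals mark an exact heptamer, where present, and the CTCF match, and all but the last come from Igh.

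Gm16948, region called in all 4 libraries, chr12:114849312-114849394, minus strand: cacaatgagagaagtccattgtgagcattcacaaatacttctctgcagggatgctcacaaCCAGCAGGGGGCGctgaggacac
Gm16700, region called in all 4 libraries, chr12:115117224-115117306, minus strand: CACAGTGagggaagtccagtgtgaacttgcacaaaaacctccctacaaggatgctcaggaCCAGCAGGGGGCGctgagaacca
Gm16970, region called in WT_CTCF alone, chr12:114826395-114826477, minus strand: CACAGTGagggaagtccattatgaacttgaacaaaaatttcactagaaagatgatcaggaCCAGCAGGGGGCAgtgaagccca
Gm16593, no region, chr12:114923610-114923692, minus strand: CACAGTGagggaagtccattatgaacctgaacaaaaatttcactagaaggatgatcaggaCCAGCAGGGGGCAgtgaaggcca
Gm16609, no region, chr12:115097279-115097359, minus strand: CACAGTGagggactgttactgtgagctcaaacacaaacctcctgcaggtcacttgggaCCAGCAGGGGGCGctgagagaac
Trbv19 of Tcrb, region called in WT_CTCF alone, chr6:41129048-41129128, plus strand: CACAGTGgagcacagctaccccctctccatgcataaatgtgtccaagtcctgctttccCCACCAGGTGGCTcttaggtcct

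Binding was recorded at 10 of the 32, and 8 of those regions were called in all 4 libraries, where 52.6% of all regions were. Of the 32 matches 28 lay in sequence whose median 31-mer occurred once in the genome, and 9 of these 28 lay in a region. The 15 exact matches lay in a region in 6 cases. The sequences past Gm16593 and Gm16609 above had exact matches and no region. Gm names are provisional symbols that the annotation gives to V segments here.

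**Figure D3:**
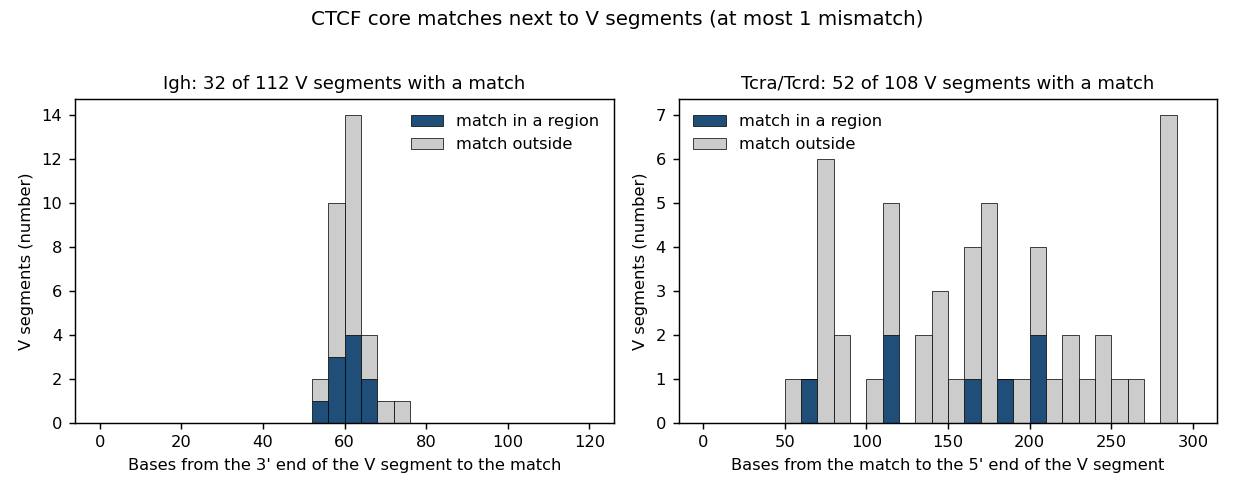
Number of V segments by the distance in bases from the segment to the best motif match, past the 3′ end in Igh (left) and before the 5′ end in Tcra/Tcrd (right), with matches in a region in blue and the others in grey. The 32 Igh matches sit between 52 and 75 bases, whereas the 52 of Tcra/Tcrd spread from 56 to 287 bases.

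Over the whole Igh window, 53 of 55 exact matches lay on the minus strand, and 14 of the 55 lay in a region. That is 25.5%, against 78.3% of the 9437 exact matches of the genome. In single-copy sequence it was 13 of 34, or 38.2% against 82.8%. In multi-copy sequence it was 1 of 21, or 4.76% against 26.1%. The share was thus below that of the genome in single-copy sequence also, a count that was not tested.

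**Figure D4:**
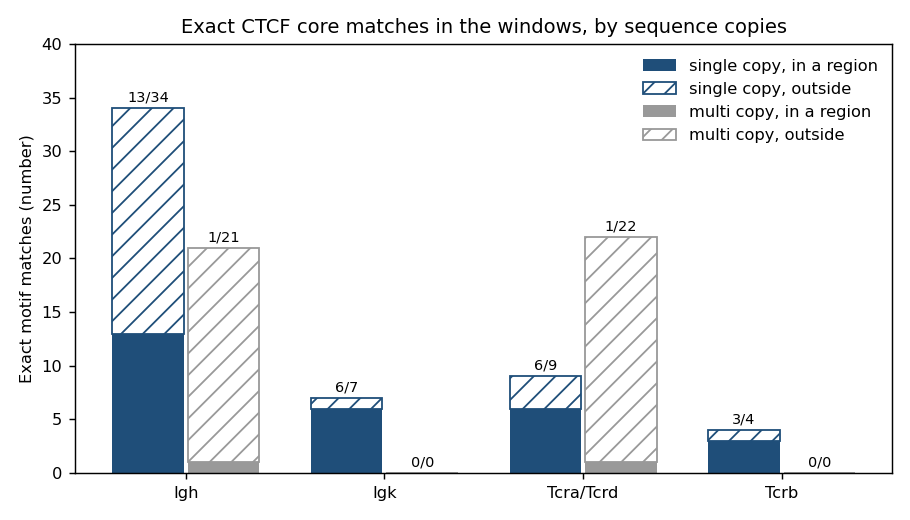
Number of exact core motif matches in each window, in single-copy sequence (blue) and multi-copy sequence (grey), filled where the match lay in a region and hatched where it did not; the labels give matches in a region over all matches. Igh had 13 of 34 and 1 of 21 in a region, Tcra/Tcrd had 6 of 9 and 1 of 22, and Igk and Tcrb had no exact match in multi-copy sequence.

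In Igk the V segments lie on both strands, 38 on the plus and 61 on the minus strand, ahead of 5 J segments and 1 C segment on the plus strand. The window had 13.5 regions per megabase, against 28.4 in its flanks, and 58.7% of its 31-mers were single-copy, against 84.9%. No region touched a V segment, and 1 of 46 lay within 1 kb of one. In the V part the median distance from a region to the nearest V segment was 8087 bp. In Igh and Tcra/Tcrd it was 641 and 582 bp. Matches were on the plus strand in 12 and on the minus strand in 5 of the 32 regions of the V part, and 15 held none.

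The interval between the V and the J segments of Igk held 3 regions. This interval is known for a silencer and an element that governs contraction of the locus, both of which bind CTCF in B cells. The region chr6:70664102-70664654, 7902 bp from Igkj1, scored 671 and 758 in WT_CTCF and 212 and 263 in MUT_CTCF, a log2 ratio of -1.59. The region chr6:70663067-70663488 scored 332 and 317 in WT_CTCF and 164 and 57 in MUT_CTCF, a log2 ratio of -1.75. Neither of these 2 regions held a match at 1 mismatch or fewer. The third, chr6:70659297-70660032, scored 203 and 378 in WT_CTCF and 57 in MUT_CTCF replicate 1, with no call in replicate 2. In all 3 the MUT_CTCF values lay below both WT_CTCF scores. The median log2 ratio of the shared pair, -1.67, lay below the median of -1.13 over the 26 shared regions of Igk. It rests on 2 regions and was not tested.

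Beyond the C segment of Igk the strongest regions lay in or past Rpia, which encodes an enzyme of the pentose phosphate pathway. The region chr6:70754477-70756494 had the highest mean count of Igk, 884.0, and scored 1490 and 1431 in WT_CTCF and 625 and 609 in MUT_CTCF. The region chr6:70761659-70762377 scored 1091 and 1379 in WT_CTCF and 564 and 548 in MUT_CTCF. In an intron of Rpia, chr6:70718680-70719252 scored 1236 and 1295 in WT_CTCF and 1022 and 656 in MUT_CTCF. The log2 ratio nearest to 0 among the 75 shared regions, -0.37, was at chr6:70747716-70748300, with 380 and 459 in WT_CTCF and 303 and 344 in MUT_CTCF. Its MUT_CTCF scores still lay below both WT_CTCF scores. The region chr6:70702479-70702864 between Igkc and Rpia scored 281 and 96 in WT_CTCF and had no MUT_CTCF call. Neither had chr6:70742013-70742398, over an exon of Rpia, which scored 91 and 139 in WT_CTCF and was 66.3% G+C.

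In Igk a peak was present in both WT_CTCF libraries and no MUT_CTCF library in 13 of the 46 regions, or 28.3%, against 19.5% of all regions and 23.8% of those in its flanks. The count was 3 where a peak needed a score of at least 250. Of these 13 regions 8 lay in the V part, and none held an exact match. Their WT_CTCF scores ran from 47 to 281 and from 28 to 190. The region chr6:68453975-68454328 was among the highest of them, with scores of 113 and 190. Among shared regions the ratio was lowest at chr6:68151457-68151884, with 203 and 190 in WT_CTCF and 57 and 57 in MUT_CTCF. The 1 region called in MUT_CTCF alone, chr6:68482646-68482838, had a score of 47 in MUT_CTCF replicate 2 and no call in the other 3 libraries. It overlapped an annotated small nucleolar RNA exon, SNORA17, and its mean count was 38.75, at the 22.5th percentile.

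**Figure D5:**
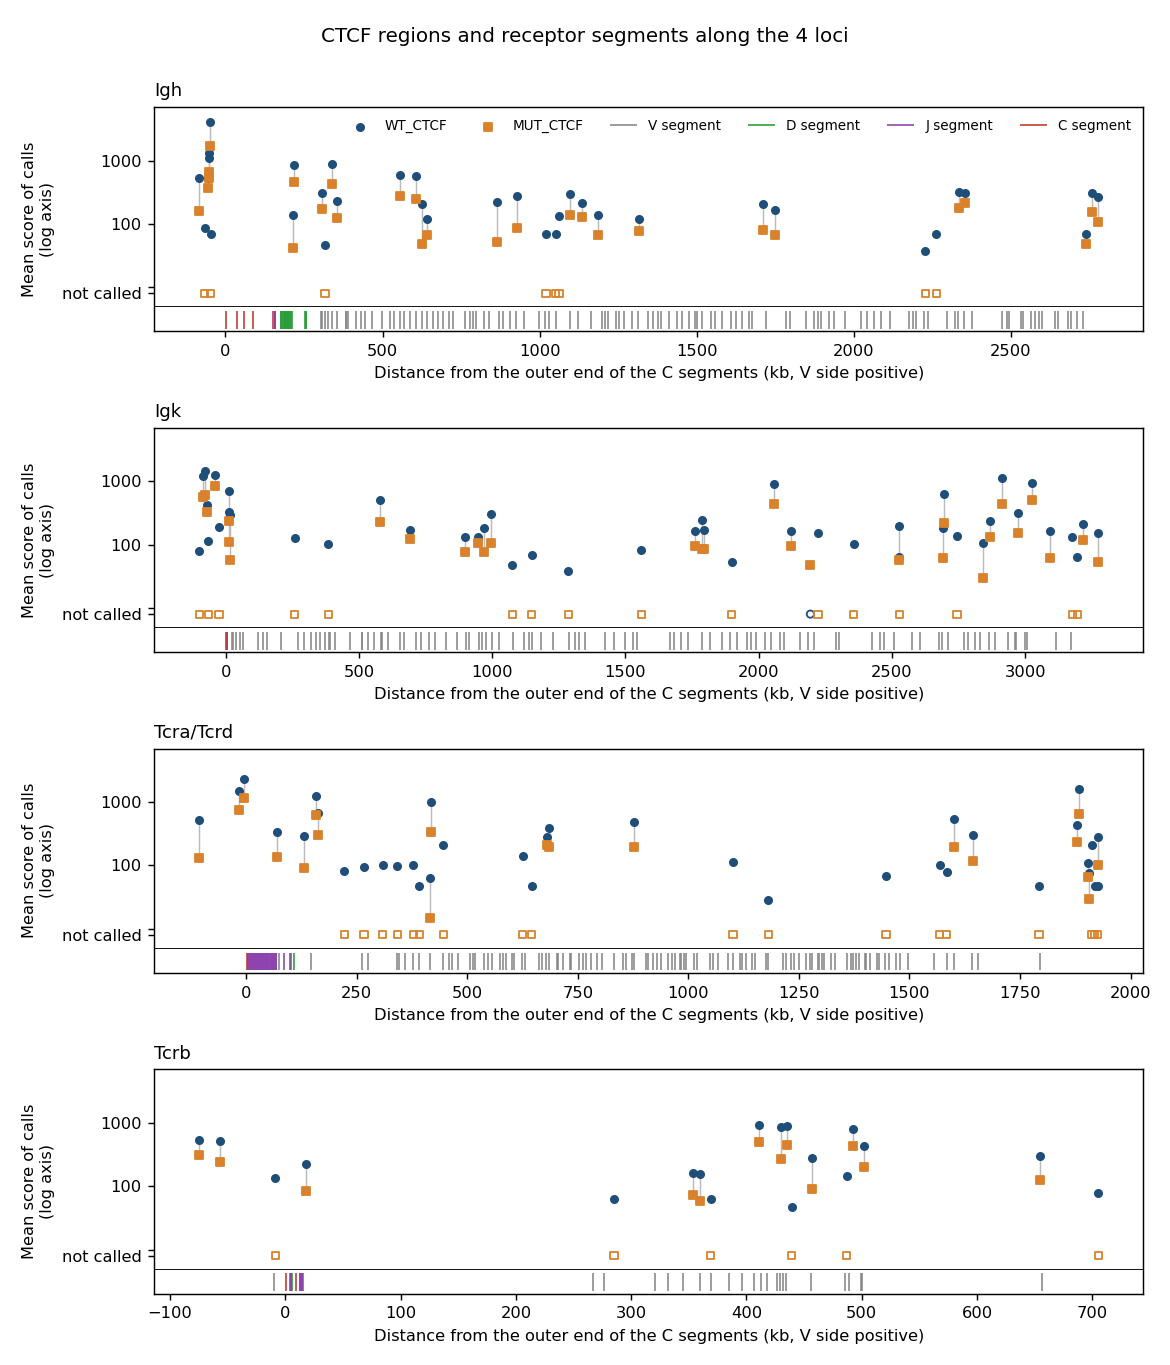
Mean score of the calls of each group (log axis, no unit) at each region along the 4 loci, against the distance in kb from the outer end of the C segments with the V side positive; open symbols mark regions with no call in that group, grey lines join the groups and ticks mark V, D, J and C segments. The highest point lies beyond the C segments of Igh, and the V part of Tcra/Tcrd holds many regions without a MUT_CTCF call.

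In Tcra/Tcrd the V segments, 107 of 108 on the plus strand, lead to the delta segments and then to the J segments and Trac. The window had 18.0 regions per megabase against 45.6 in its flanks, and 49.6% of its 31-mers were single-copy against 78.6%. This locus kept the smallest share of its calls. Of its 37 regions 16 were called in all 4 libraries, or 43.2% against 52.6% of all regions. In both WT_CTCF libraries and no MUT_CTCF library 7 were called, or 18.9% against 19.5%, and the count was 15 without WT_CTCF replicate 1. In a single WT_CTCF library only 11 were called. The last share was 29.7%, against 18.8% of all regions and 15.5% of the flanks. In the V part alone 8 of 24 regions were called in all 4 libraries. The median mean count there was 52.625, the lowest of the 4 V parts. WT_CTCF replicate 1 called 29 regions and replicate 2 called 34, the widest spread between WT_CTCF replicates of any of the loci.

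The strongest regions of Tcra/Tcrd framed the V part and the C segment. At 4610 bp beyond Trac, chr14:54847382-54848376 scored 2252 and 2376 in WT_CTCF and 1198 and 1144 in MUT_CTCF, a log2 ratio of -0.98. The interval between Trac and the next gene, Dad1, is known for the alpha enhancer and an insulator. In an intron of Dad1, which encodes a subunit of the oligosaccharyltransferase, chr14:54858606-54859166 scored 1609 and 1431 in WT_CTCF and 769 and 753 in MUT_CTCF. Ahead of the V part, chr14:52958159-52958997 scored 1470 and 1772 in WT_CTCF and 579 and 720 in MUT_CTCF. At 9838 bp from Trdv4, near the D end of the V part, chr14:54684027-54684841 scored 1230 and 1301 in WT_CTCF and 668 and 594 in MUT_CTCF. The MUT_CTCF scores lay below the WT_CTCF scores at each of them.

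Weaker regions lay ahead of the delta D segments and among the J segments. Between Trdv4 and the first delta D segment, chr14:54712079-54712425 scored 244 and 332 in WT_CTCF and 66 and 118 in MUT_CTCF, a log2 ratio of -1.69. Among the J segments, chr14:54772493-54772942 scored 302 and 378 in WT_CTCF and 85 and 189 in MUT_CTCF. The ratio was lowest at chr14:54948254-54948822, between genes beyond Dad1, with 439 and 620 in WT_CTCF and 164 and 96 in MUT_CTCF. It was highest at chr14:54161411-54161796 in the V part, with 228 and 343 in WT_CTCF and 188 and 225 in MUT_CTCF. There the higher MUT_CTCF score came close to the lower WT_CTCF score. Without any MUT_CTCF call were chr14:52930038-52930438 near Sall2, which scored 203 and 217, and chr14:54396305-54396674 over an exon of Trav3-4, which scored 176 and 245.

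Some of the matches in Tcra/Tcrd lay just ahead of V segments, where promoters are found, and none lay just past them. Over the whole window 53 matches with at most 1 mismatch lay 0 to 300 bp before a V segment, of which 7 lay in a region. The other 109 lay elsewhere, of which 18 lay in a region. Within 300 bases before the 5′ end 52 of the 108 V segments held a match, or 48.1%, against 1.49% of all 300-base windows of the genome. Of these, 49 lay on the strand of the V segment. Within 120 bases past the 3′ end none of the 108 held one. The V segments of this locus are partly copies of each other, so the matches are not independent. Regions covered 7 of the 52 matches, and 3 of these regions were called in all 4 libraries. Of the 31 exact matches in the window 7 lay in a region, 6 of 9 in single-copy and 1 of 22 in multi-copy sequence. In Tcra/Tcrd 9 regions touched a V segment, of which 3 were called in all 4 libraries. In Igh it was 8 of 8.

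In Tcrb the V segments, 22 of 23 on the plus strand, stand ahead of the trypsinogen genes, and the D, J and C segments follow. The window had 21.2 regions per megabase and its flanks 16.5, so it was the only locus of the 4 that was not sparser than its flanks. Its 31-mers were single-copy in 75.6%, against 82.6% in the flanks. Of its 18 regions 10 were called in all 4 libraries, or 55.6% against 52.6% of all regions. In both WT_CTCF libraries and no MUT_CTCF library 4 were called, or 22.2% against 19.5%, so both shares were near the background. All 7 matches of the V part lay on the plus strand, pointing towards the D segments. The matches in front of Trbd1 and near Trbv31, past the last C segment, lay on the minus strand.

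The 3 regions of Tcrb with the highest mean count lay in its V part, and none of them touched a V segment. The region chr6:41086872-41087472, 1264 bp from Trbv14, scored 973 and 847 in WT_CTCF and 548 and 444 in MUT_CTCF. At chr6:41062802-41063303, 263 bp from Trbv12-1, the scores were 882 and 919 in WT_CTCF and 503 and 400 in MUT_CTCF. At chr6:41005383-41006035, 3407 bp from Trbv4, they were 775 and 811 in WT_CTCF and 533 and 330 in MUT_CTCF. The ratio was lowest at chr6:41068066-41068659, 204 bp from Trbv12-2, with 793 and 901 in WT_CTCF and 303 and 237 in MUT_CTCF, a log2 ratio of -1.66. The region chr6:41011052-41011385, near Trbv5, scored 125 and 164 in WT_CTCF and had no MUT_CTCF call.

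No region was listed for 267 kb between chr6:41213105 and chr6:41479964, a stretch known for trypsinogen genes. At its far end chr6:41479965-41480469, 2731 bp ahead of Trbd1, scored 216 and 231 in WT_CTCF, 85 in MUT_CTCF replicate 1 and had no call in replicate 2. CTCF binding ahead of this D segment is known as a boundary against the trypsinogen genes in thymocytes. Past the C segments, chr6:41506466-41506841 lay 849 bp from Trbv31 and scored 101 and 164 in WT_CTCF with no MUT_CTCF call. Farther out, near Ephb6, chr6:41554186-41554793 scored 603 and 440 in WT_CTCF and 212 and 263 in MUT_CTCF. Over an exon of Trpv6, chr6:41572442-41573167 had the highest ratio of the locus, with 561 and 531 in WT_CTCF and 331 and 290 in MUT_CTCF.

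The summits of shared regions lay close to the motif in every library. The median distance from summit to the centre of the match was 10 and 9 bp in WT_CTCF and 14 and 18 bp in MUT_CTCF for the 17 such regions of Igh. For the 14 of Tcra/Tcrd it was 11.5 and 7.5 bp in WT_CTCF and 13 and 11 bp in MUT_CTCF. For the 13 of Igk it was 12 and 14 bp and 11 and 12 bp, and for the 5 of Tcrb 5 and 5 bp and 10 and 13 bp. Peaks of shared regions were also narrower in MUT_CTCF, at 323 ± 22.6 bp (SD, n = 2) against 458 ± 13.4 bp (SD, n = 2). Over all shared regions the widths were 394 ± 10.6 bp (SD, n = 2) and 540 ± 19.8 bp (SD, n = 2). In both sets the groups were separated (exact two-sided permutation test on n = 2 per group, p = 0.333).

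The genes that carry out the rearrangement were set beside the loci. In or within 10000 bp of Rag1 and Rag2, which encode the recombinase, of Dntt, which encodes the polymerase that adds untemplated bases, and of 7 end-joining genes there were 26 regions. Of these, 15 were called in all 4 libraries, where 52.6% of all regions were, and 7 in both WT_CTCF libraries and no MUT_CTCF library, where 19.5% were. In all 15 shared regions both MUT_CTCF scores lay below both WT_CTCF scores, which held for 96.2% of shared regions genome-wide.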

How the data were processed

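Mouse embryonic stem cells were profiled by CTCF ChIP-seq, with 2 CTCF libraries and 1 input per genotype. Per the labels and the study's methods, the authors used Trim Galore 0.4.4, Bowtie2 2.3.4.1 to mm9, MACS2 2.1.1.20160309, DESeq2 1.38.0 and deepTools 3.1.1; they removed multiply aligned and duplicate reads, scaled tracks with a Drosophila spike-in and called peaks per library. The score in the authors' deposited peak lists is the caller's own value, and its cutoff and definition are not given in the sources used here. The deposited table holds for each joined region the authors' mean signal, a mean of 4 scaled counts, and the authors' own comparison (log2 fold change, its standard error, statistic, p-value and adjusted p-value), which was not used here. The number of unused columns of per-sample values was 0. The inputs were not analysed here.

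Each library's highest peak score in each of the 57662 joined regions was read with at least 1 bp of overlap. Groups came from the sample titles. For calls and median log2 score, groups were set against each other by exact permutation, two-sided, over the 4 libraries (smallest p 0.333). Sequence came from the NCBIM37 genome, the assembly that mm9 names, and locations and gene names from GENCODE vM1; V segments annotated as pseudogenes were left out. Sequence was scanned for the core CTCF consensus with at most 1 mismatch, and copies were counted as genomic occurrences of 31-mers. Sections were set by the outermost V, D, J and C segments. Regions named were, per locus, the 3 with the highest mean count, those from the V segments to the last C segment, up to 4 beyond it, the lowest and highest ratio of mean score, the 2 highest of those called in WT_CTCF alone, and any called in MUT_CTCF alone. Members, lists and this rule were chosen with earlier results of these data known. Replicate numbers did not pair the samples: over 30317 regions the correlation of replicate differences between genotypes was -0.00331. Alternatives were another score minimum, coverage rule, extent, scale, mismatch limit and search window, the replicate block and leaving out each library. Scripts were tested on simulated data. Scripts ran with numba 0.67.0, matplotlib 3.10.9, scipy 1.17.1, pandas 2.3.3, numpy 2.4.6 and Python 3.11.15.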

Additional observations from a re-analysis of the deposited data

How the results depend on the processing

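The fall in the number of called regions kept its direction under all 32 alternatives. The median log2 score of shared regions did so under 32 of 36. The exception was dividing each score by the library's own median over all regions called in all 4 libraries. This changed the difference to 0.31 in Igh, 0.08 in Igk, 0.07 in Tcra/Tcrd and 0.10 in Tcrb (exact permutation p = 0.333 in Igh and 1.00 in the others). By this measure no fall beyond that of all shared regions was seen. Taken region by region, the median log2 ratio was -1.07 in Igh, -1.13 in Igk, -1.33 in Tcra/Tcrd and -1.10 in Tcrb. Over all shared regions it was -1.18, so that of Tcra/Tcrd was lower, a difference that was not tested. The replicate block left the differences in calls at -7.00, -15.0, -14.0 and -6.00 in Igh, Igk, Tcra/Tcrd and Tcrb and those in log2 score at -0.90, -1.14, -1.14 and -1.11, with an exact p of 0.5, the smallest 2 pairs allow; it changed no call. Leaving out 1 library at a time gave differences in calls from -9.00 to -5.00, -15.0 to -15.0, -16.5 to -11.5 and -7.00 to -5.00, and in log2 score from -0.98 to -0.87, -1.34 to -0.68 (-0.68 without MUT_CTCF replicate 2), -1.29 to -0.98 and -1.21 to -1.02. Regions called in both WT_CTCF and no MUT_CTCF library, 3 in Igh, were 6 with a minimum score of 250, 5 with 50% coverage and 8 where 1 WT_CTCF call sufficed, and between 3 and 6 with a library left out (6, 5 and 6 without WT_CTCF replicate 1, WT_CTCF replicate 2 and MUT_CTCF replicate 1). They were 3 in Igk and 2 in Tcrb with that minimum score, and 18 in Tcra/Tcrd where 1 WT_CTCF call sufficed. With a library left out they ranged from 14 to 15 in Igk, from 8 to 15 in Tcra/Tcrd (15 without WT_CTCF replicate 1, against 7) and from 4 to 6 in Tcrb. Without mismatches 14, 4, 7 and 3 regions held a motif match, and with 2 mismatches 45 in Igk and 16 in Tcrb did. Depth per library was not known, so counting error could not be given.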
